A study of Bos taurus and Sus scrofa with 6 samples.

Results

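DAZL, BOLL, ELAVL2 and MEIOC are 4 genes for proteins that bind RNA, or act with RNA-binding partners, in germ cells. They were found by gene symbol in the gene tables of both species. The cattle table listed all 4 among 19994 genes, as DAZL (ENSBTAG00000000502), BOLL (ENSBTAG00000031614), ELAVL2 (ENSBTAG00000046348) and MEIOC (ENSBTAG00000039485). The pig table listed 3 among 22694 genes, as BOLL (ENSSSCG00000016082), ELAVL2 (ENSSSCG00000005130) and MEIOC (ENSSSCG00000017351). DAZL was not found under its symbol in pig and was not analysed there. Single-cell RNA-sequencing was done on testes of prepubertal males, taken by castration from 3 Holstein cattle at 4.5 months and 3 mixed breed pigs at 3 months. Each library came from 1 animal, and none of the animals was treated or genetically altered, so the comparisons are between cells of the same testes and between species. The suspensions were made from whole testicular parenchyma and no sort for germ cells was described.

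DAZL and BOLL belong to the DAZ family, whose proteins bind the 3′ untranslated regions of messenger RNAs and regulate their translation in germ cells. DAZL acts from the primordial germ cell onward, while BOLL is known mainly from spermatocytes and spermatids. ELAVL2, also called HuB, is a member of the Hu family that binds AU-rich elements and acts in neurons and germ cells. MEIOC acts with the RNA helicase YTHDC2 in germ cells that enter meiotic prophase, where it is needed for the meiotic programme to hold.

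In total 26688 cells were kept, 17482 from cattle and 9206 from pigs. Total UMIs (unique molecular identifiers, 1 per captured RNA molecule) were 5805223 to 53325608 per cattle library and 6245189 to 40099873 per pig library. Cattle 1 and pig 1 were the shallowest, with a median of 789 and 889.5 UMIs per cell against 1683 to 5860 in the other 4 libraries. Clusters with germ cell markers, called germ-like, held 82, 220 and 218 cells of cattle 1, 2 and 3 (2.93% ± 0.685 of cells, SD, n = 3) and 642, 249 and 700 cells of pigs 1, 2 and 3 (19.4% ± 12.4, SD, n = 3). The summed germ cell markers reached 2496 to 2962 CPM (counts of a gene scaled to the same total of UMIs in each sum of cells) in germ-like cells of cattle against 79.7 to 98.99 CPM in all other cells. In pigs they reached 1087 to 1483 CPM against 49.5 to 64.9. Each of the 13 listed germ cell markers was higher in every pig's germ-like cells than in any pig's other cells, and in cattle this held for 12 of 13. The exception was TEX15, at 23.9, 182 and 158 CPM in germ-like cells of cattle 1, 2 and 3 and 3.93, 24.0 and 18.4 CPM in their other cells. Since these same markers named the clusters, their higher levels follow from the naming and are no separate check of it. Libraries of 1 species shared 8 to 61 cell barcodes, at most 1.13% of the cells of the smaller library.

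The libraries were read from the 3′ ends of transcripts, where the gene model decides which reads are counted. For the 3 genes measured in pig, the last 30 bases of the RefSeq gene on Sscrofa11.1 are shown, 5′ to 3′ on the gene's strand, with the polyadenylation signal AATAAA in capitals where it occurs.
ELAVL2: agtacatcAATAAAcaaagttgaagggaaa
MEIOC: aaaggctttacaagatatagtgaactgtga
BOLL: cctcaacctttttcatggcctagcttgata
The ELAVL2 gene spans chr1:198964070-199135815 on the plus strand, and the bases shown are chr1:199135786-199135815. Its models carry 2432 bases of 3′ untranslated region, and it overlaps 1 RefSeq gene on the same strand, LOC110255437. MEIOC spans chr12:18652582-18663227 on the minus strand and its end is chr12:18652582-18652611, with 1 transcript model that has 0 bases of 3′ untranslated region and so stops at the coding sequence. BOLL spans chr15:101535392-101602232 on the minus strand, ends at chr15:101535392-101535421 and carries 2119 bases of 3′ untranslated region. AATAAA was searched on the gene's strand, and 8689 of 19535 RefSeq gene ends (44.5%) held it in their last 30 bases. These models are not the ones on which the reads were counted, and their part in the levels was not tested. Levels are therefore compared for 1 gene across cells, not between genes or between species.

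DAZL had close values in the germ-like cells of all 3 cattle. It stood at 345, 357 and 337 CPM in cattle 1, 2 and 3, from 101, 470 and 1256 UMIs, a mean of 346 ± 10.0 CPM (SD, n = 3). In all other cells it stood at 1.97, 2.08 and 2.77 CPM. Every germ-like value lay far above every value of the other cells, and the spread among the germ-like values was small. The share of all genes whose values separate in this way is not given here, nor for the separations that follow. Summed over animals the ratio was 137, with a 95% counting interval of 114 to 166.

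BOLL was also higher in germ-like cells of cattle, at 37.6, 41.7 and 47.7 CPM in cattle 1, 2 and 3 (mean 42.3 ± 5.08 CPM, SD, n = 3). Other cells held 0.656, 0.195 and 0.171 CPM, from 10 UMIs in all, and the ratio of the sums was 217 (counting interval 116 to 459). In pigs BOLL was at 5.44, 4.004 and 6.48 CPM in germ-like cells of pigs 1, 2 and 3 (mean 5.31 ± 1.24 CPM, SD, n = 3). The germ-like and other values did not overlap in either species, a separation for which the share of all genes is also not given. Only 2 BOLL UMIs were counted in all other pig cells, for a ratio of 79.1 with a counting interval of 21.3 to 662.

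ELAVL2 was the member with the most UMIs in pig. Germ-like cells of pigs 1, 2 and 3 held 237, 497 and 323 CPM, from 479, 1737 and 3738 UMIs (mean 352 ± 132 CPM, SD, n = 3). Other pig cells held 7.31, 11.5 and 8.30 CPM. The groups did not overlap, and the ratio of the sums was 34.6 (counting interval 30.7 to 39.2). In cattle ELAVL2 was at the edge of detection, where cattle 1, 2 and 3 had 0, 5 and 13 germ-like UMIs, or 0, 3.79 and 3.48 CPM. The 0 in cattle 1 allows up to 10.3 CPM, above the values of cattle 2 and 3, so it does not show a lower level. Other cattle cells held 1 ELAVL2 UMI, a ratio of 160 with a counting interval of 25.3 to 6683.

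MEIOC was low in germ-like cells of both species as a whole. In cattle it had 0, 13 and 28 UMIs, or 0, 9.86 and 7.502 CPM in cattle 1, 2 and 3, against 1 UMI in all other cells (ratio 365, counting interval 62.0 to 14779). In pigs it was at 12.9, 1.43 and 11.9 CPM in germ-like cells of pigs 1, 2 and 3 (mean 8.74 ± 6.35 CPM, SD, n = 3) and at 0.430, 0.0643 and 1.09 CPM in the other cells. The lowest germ-like value, that of pig 2, was above the highest value of the other cells by a small margin. The ratio of the summed pig values was 22.3 (counting interval 12.4 to 44.0), and it was 12.6 without pig 2 and 50.2 without pig 3.

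**Figure D1:**
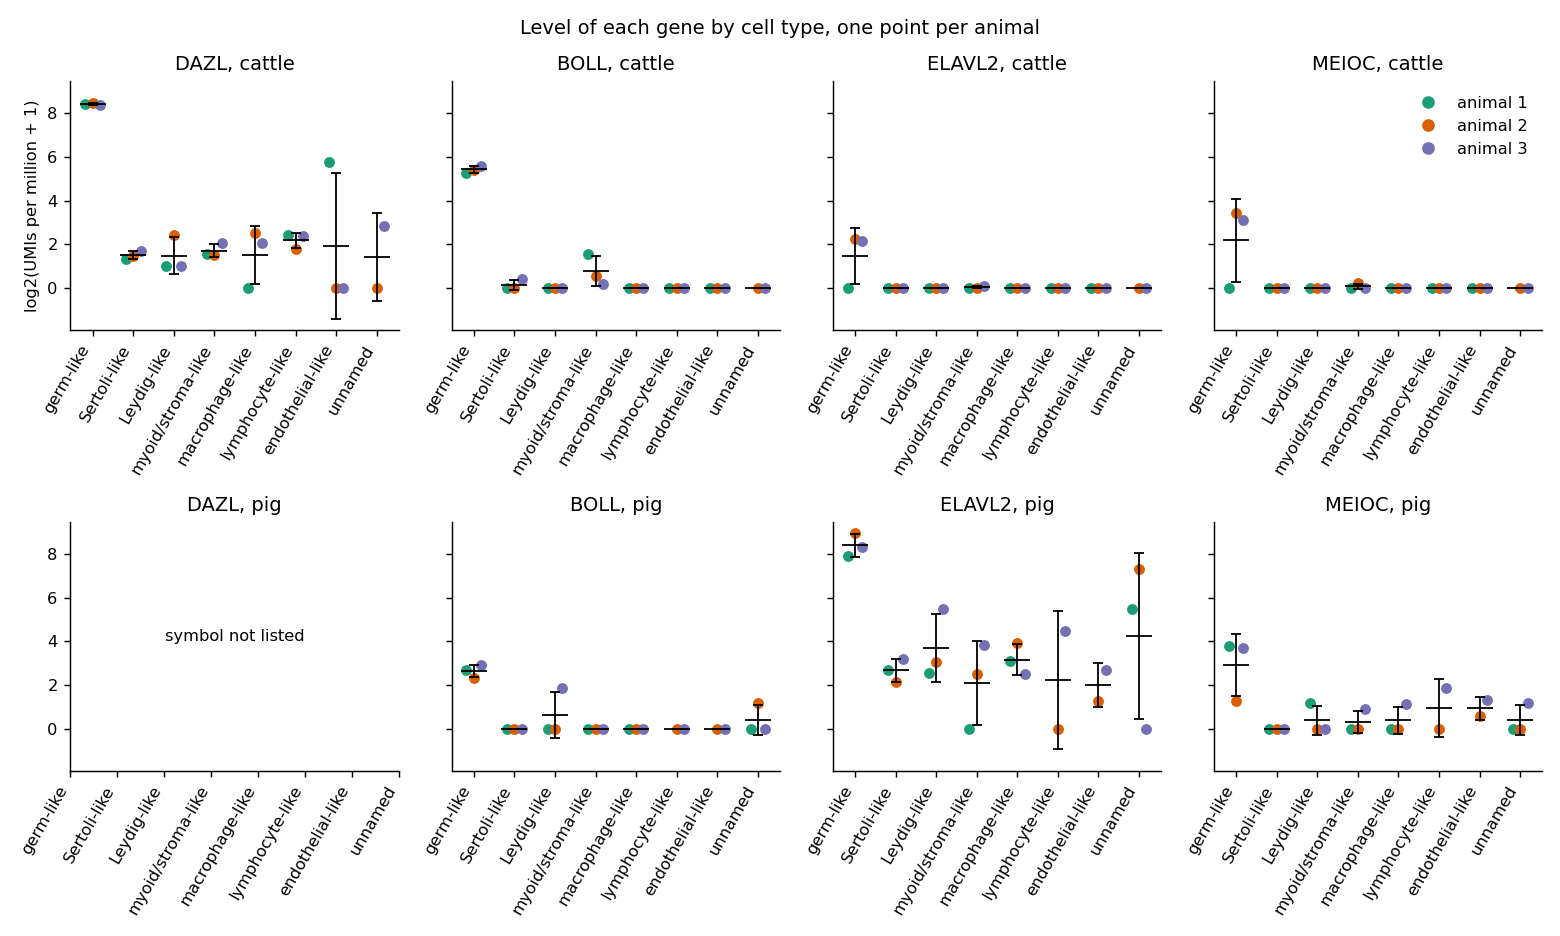
Level of each gene by cell type in cattle (upper panels) and pigs (lower panels), as log2(CPM + 1), with 1 point per animal, a line at the mean of those points and a bar of 1 SD over animals with at least 20 cells of the type. DAZL and BOLL in cattle and ELAVL2 in pig stand highest in germ-like cells in every animal, while ELAVL2 and MEIOC in cattle are at 0 in cattle 1.

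Germ-like cells were compared with all other cells in counts summed per animal (edgeR quasi-likelihood test, with called meaning a Benjamini-Hochberg adjusted p below 0.05). All 4 members were called higher in cattle germ-like cells, where 23.1% of 14202 genes tested were called higher and 26.7% lower. The log2 fold changes were 6.07 ± 0.27 (SE) for DAZL (adjusted p = 1.12e-05), 6.37 ± 0.52 for BOLL (adjusted p = 2.40e-05), 5.52 ± 0.97 for ELAVL2 (adjusted p = 0.00130) and 6.58 ± 1.07 for MEIOC (adjusted p = 0.000835). All 3 listed members were called higher in pig, where 17% of 15220 genes were called higher and 20.2% lower. There the log2 fold changes were 5.61 ± 0.80 for BOLL (adjusted p = 0.00161), 4.90 ± 0.36 for ELAVL2 (adjusted p = 0.000311) and 3.75 ± 1.10 for MEIOC (adjusted p = 0.0259). The MEIOC call in pig was lost without pig 1, at a log2 fold change of 3.42 (adjusted p = 0.121). Fitted values for cattle ELAVL2 and MEIOC and pig BOLL rest on 1 or 2 UMIs in the other cells and depend on the prior count of the fit, so the counting ratios above carry the size.

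The counts over all genes moved with the normalization. With library size alone in place of TMM, the median log2 fold change of all genes moved by 1.11 in cattle and 0.35 in pig, and the cattle calls went from 3285 higher and 3799 lower to 6255 higher and 1826 lower. The member calls held under both. Within the germ-like class, Leydig cell markers were at 6137 CPM in cattle 1 against 515 and 837 CPM in cattle 2 and 3, and Sertoli cell markers at 1747, 1314 and 309 CPM in the germ-like cells of pigs 1, 2 and 3. The part of these in the results was not tested.

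The share of cells with a UMI showed the same order once cells were thinned to 700 UMIs. Cells with fewer UMIs were left out. In cattle 1 these were 1387 of the 3362 other cells and 1 of the 82 germ-like cells. In pig 1 they were 44 of the 2520 other cells and 0 of the 642 germ-like cells. DAZL was then found in 23.6% ± 3.36 of cattle germ-like cells (SD, n = 3) and in 0.182% of other cells, beside 0.252% of Sertoli-like cells, which should lack it. As counted, the germ-like share was 79.2% ± 15.3. ELAVL2 was found in 19.1% ± 4.72 of thinned pig germ-like cells against 0.454% ± 0.191 of other cells and 0.361% of Sertoli-like cells, and in 75.7% ± 24.3 of germ-like cells as counted. Median depths before thinning were 3554.5, 6150.5 and 16908 UMIs in germ-like and 779, 1657 and 4373.5 in other cells of cattle 1, 2 and 3, and 2809.5, 13499 and 14775 against 842, 3775 and 4868 in pigs 1, 2 and 3. For both genes the germ-like shares of the 3 animals lay above all other shares (exact permutation test, two-sided, p = 0.1, which no design of 3 against 3 can go below).

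The rarer members left less at this depth. BOLL was in 1.94% ± 0.766 of thinned cattle germ-like cells and 0.0253% of other cells (exact permutation p = 0.1), and in 0.394% ± 0.363 of thinned pig germ-like cells against 0.0217% (exact permutation p = 0.4). MEIOC was in 0.536% ± 0.210 of thinned pig germ-like cells against 0.0217% of other cells (exact permutation p = 0.1) and in 0.152% of those of cattle. ELAVL2 was in none of the thinned cattle germ-like cells, which allows shares of up to 3.70%, 1.36% and 1.38% of thinned cells with a UMI in cattle 1, 2 and 3, while as counted 2.27% and 5.50% of the germ-like cells of cattle 2 and 3 had one. A difference from the other cells was not detectable for ELAVL2 or MEIOC in thinned cattle cells.

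Among the somatic types of cattle, DAZL was low. In cattle 1, 2 and 3 it was at 4.30, 2.46 and 4.16 CPM in lymphocyte-like cells, from 1, 3 and 12 UMIs. Each of these values lay above all Sertoli-like values, at 1.52, 1.78 and 2.23 CPM. The means over 3 animals were 3.64 ± 1.02 CPM in lymphocyte-like, 2.59 ± 2.37 in macrophage-like, 2.30 ± 0.694 in myoid or stroma-like, 2.13 ± 1.98 in Leydig-like and 1.84 ± 0.362 in Sertoli-like cells (SD, n = 3), and neighbours in this order differed by less than their spread. Endothelial-like cells had 1 DAZL UMI, in cattle 1. BOLL UMIs outside germ-like cells were in Sertoli-like cells (3) and myoid or stroma-like cells (7). Cattle barcodes with at most 50 UMIs, which are too poor to be cells, held 10.8, 23.8 and 22.9 CPM of DAZL in cattle 1, 2 and 3, above the DAZL level of the other cells in each animal and below that of the germ-like cells.

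ELAVL2 in pig somatic cells was low and uneven. Leydig-like cells were at 4.90, 7.35 and 43.7 CPM in pigs 1, 2 and 3, so that pig 3 alone set their mean of 18.7 ± 21.8 CPM (SD, n = 3). Macrophage-like cells were at 8.71 ± 4.84 CPM, myoid or stroma-like cells at 5.87 ± 6.62 and Sertoli-like cells at 5.69 ± 2.39 (SD, n = 3), which do not differ beyond their spread. An unnamed cluster of 237 cells, 231 of them from pig 2, had UCHL1 as its leading gene and held 128 ELAVL2 UMIs, or 161 CPM (counting interval 135 to 192). It gave 126 of the 179 ELAVL2 UMIs in the other cells of pig 2. Without it, the other cells of pigs 1, 2 and 3 held 6.48, 3.59 and 8.31 CPM, and the ratio of germ-like to other cells rose from 34.6 to 63.5 (counting interval 53.8 to 75.4). It also held 1 of the 2 BOLL UMIs outside germ-like cells. UCHL1 is expressed in spermatogonia and in neurons. The cluster matched the myoid and stroma list best (8 markers), but 6 germ cell markers also counted for it. UCHL1, COX8C and CLGN among its leading genes also led germ-like clusters, while DCN was its 1 leading stromal marker. Pig barcodes below the cell minimum held 7.95, 31.8 and 18.0 CPM of ELAVL2 in pigs 1, 2 and 3. That minimum was 696, 2444 and 3458 UMIs, so unlike the poor cattle barcodes above, these can include cells. At a minimum of 500 UMIs, 32781 pig cells were kept, 3314 of them germ-like, in place of 9206 and 1591.

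More than 1 member was seen in 145 cattle germ-like cells with 2 and 20 with 3, and in 146 pig cells with 2 and 16 with 3. Of 520 cattle germ-like cells, 433 had a DAZL UMI and 144 a BOLL UMI, and 135 had both, which is 93.8% of the BOLL cells and 31.2% of the DAZL cells. The product of the separate shares comes to 119.9 cells. ELAVL2 was seen in 17 cattle germ-like cells, 16 with DAZL, and MEIOC in 35, 33 with DAZL, while no cell had both ELAVL2 and MEIOC. Of 1591 pig germ-like cells, 1155 had an ELAVL2 UMI. BOLL was seen in 93 of the pig cells, 79 of them with ELAVL2 (84.9%), and MEIOC in 141, of which 98 had ELAVL2 (69.5%), where the products of the shares come to 67.5 and 102.4 cells. No member was seen in 76 cattle and 380 pig germ-like cells. Joint detection moves with the depth of a cell, and these counts carry no test.

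The stage of the germ-like cells was first read from meiotic genes that are not members. Cells with a UMI of at least 3 of these genes were compared with cells with none, which left 2 pigs with enough cells, and 0 of the 3 members were called in that comparison, where 0.0937% of 11736 genes were called higher and 0% lower. The log2 fold change was 2.56 ± 1.47 (SE) for MEIOC (adjusted p = 0.999, edgeR quasi-likelihood test). No member had an unadjusted p below 0.05, and DESeq2 called none of them. Over all genes 307 had an unadjusted p below 0.05, 11 were called, and DESeq2 called 2. With the animal as a block edgeR called 25 higher and 1 lower. The classes differed in depth, with a median of 1684 UMIs in cells with none of the genes and 13484 in cells with at least 3. The classes were also set after cells were thinned to 2000 UMIs, with cells of fewer UMIs left out, which kept 3 pigs. Again no member was called (0.982% of 12323 genes higher, 0.138% lower). MEIOC was at 2.78 ± 0.71 there (edgeR quasi-likelihood test, adjusted p = 0.0793, unadjusted p = 0.00136). When 3 subclusters with high meiotic and low spermatogonial gene levels (246, 11 and 200 cells of pigs 1, 2 and 3) were set against all other germ-like cells, MEIOC was called higher at 3.33 ± 0.59 (adjusted p = 0.00659), where 1.67% of 13986 genes were called higher and 1.62% lower. In cattle only 1 animal had enough cells without any meiotic gene as counted. With thinned classes 2 cattle could be compared, and 0 of 9354 genes were called (0% higher, 0% lower, 598 at an unadjusted p below 0.05), with DAZL at -0.13 ± 0.26, BOLL at 0.34 ± 0.43 and MEIOC at 0.13 ± 0.80 (edgeR quasi-likelihood test, adjusted p = 0.999 for each).

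Clusters of the pig germ-like cells differed more clearly. They were numbered 1 to 4 from the highest to the lowest level of a list of spermatogonial genes, with 233, 488, 513 and 357 cells, and the members were kept out of the genes used to cluster. Cluster 1 held PIWIL4, a gene of undifferentiated spermatogonia, at 99.9, 141 and 120 CPM in pigs 1, 2 and 3. Cluster 2 held ZBTB16, another spermatogonial gene, at 61.5, 71.5 and 96.7 CPM, and cluster 3 held KIT, which marks differentiating spermatogonia, at 37.6, 94.5 and 64.2 CPM. Over all pigs ZBTB16 was at 25.0 CPM in cluster 1 and at 43.9 CPM in cluster 3. KIT was not particular to cluster 3, with 39.95, 49.5 and 39.5 CPM in cluster 1 and 18.2, 78.96 and 55.1 CPM in cluster 4, but it was at 9.11, 12.6 and 1.15 CPM in cluster 2. Cluster 4 held the summed meiotic list at 2556, 1960 and 2172 CPM. The list was at 544, 742 and 745 CPM in cluster 1. In clusters 2 and 3 it was at 407, 416 and 381 CPM and at 620, 508 and 638 CPM. Clusters 1 to 3 therefore do not run in order of the meiotic list, and the numbers give no course of stages. SYCP1, of the synaptonemal complex, stood at 248, 136 and 252 CPM in cluster 4. Over all pigs it was at 89.7, 18.3 and 54.4 CPM in clusters 1, 2 and 3. A subcluster of 82 cells, all within cluster 4, had the meiotic list at 5499, 3273 and 5506 CPM, although pig 2 gave only 6 of these cells and only 16 of those of cluster 4.

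ELAVL2 was lowest in cluster 4. It stood at 409, 625 and 513 CPM in cluster 1, at 243, 495 and 359 CPM in cluster 2 and at 239, 429 and 332 CPM in cluster 3 of pigs 1, 2 and 3. In cluster 4 it stood at 115, 223 and 186 CPM. Every value of cluster 4 was below every value of the other clusters, while clusters 1 to 3 overlapped across pigs. The share of all genes for which cluster 4 separates from the other clusters is not given here. The order of clusters 1 and 2 depended on the normalization. Cluster 2 minus cluster 1 was 0.09 on the log2 scale with TMM, -0.16 with DESeq2 and -0.51 with library size alone. The 82 cells of the meiotic subcluster held 0, 3 and 5 ELAVL2 UMIs, or 0, 74.4 and 11.98 CPM. With cells thinned to 2000 UMIs, the share of cells with an ELAVL2 UMI was 62.7%, 50.1%, 46.3% and 23.9% in clusters 1 to 4. Cells with fewer UMIs were left out, which in pig 1 were 75 of 107, 72 of 260, 19 of 141 and 43 of 134 cells. As counted, with all cells, the shares were 80.4%, 83.3%, 79.5% and 51.4%.

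MEIOC ran the other way. It had 0 UMIs in cluster 1, which allows up to 14.98, 3.23 and 4.75 CPM in pigs 1, 2 and 3. It was at 3.42, 0.786 and 1.43 CPM in cluster 2 and at 9.81, 0.867 and 9.22 CPM in cluster 3. Cluster 4 held 51.4, 21.5 and 39.2 CPM, from 17, 3 and 84 UMIs, and every value there was above every value of the other clusters. In the meiotic subcluster MEIOC was at 107, 49.6 and 76.6 CPM. The thinned shares were 0%, 0.610% ± 0.653, 1.82% ± 2.09 and 4.13% ± 3.60 in clusters 1 to 4 (SD over pigs). In cluster 4, 0 of 16 thinned cells of pig 2 had a MEIOC UMI, against 4.10% in cluster 3 of pig 1. Unlike the levels, the thinned shares of clusters 3 and 4 thus overlapped.

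BOLL had no such order. It stood at 9.99, 6.45 and 4.75 CPM in cluster 1, at 2.28, 3.14 and 1.43 CPM in cluster 2 and at 8.17, 2.60 and 6.78 CPM in cluster 3, and cluster 4 was at 6.05, 7.18 and 14.5 CPM. Every value of cluster 2 lay below every value of clusters 1 and 4, while clusters 1, 3 and 4 overlapped. These values rest on few counts, 11, 11, 44 and 34 UMIs over all pigs in clusters 1 to 4. The value of cluster 1 in pig 1 came from 2 UMIs, and 1 cell of cluster 4 in pig 2 had a BOLL UMI. The meiotic subcluster held 23.8, 24.8 and 19.2 CPM of BOLL, all above the 4 clusters, from few UMIs.

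**Figure D2:**
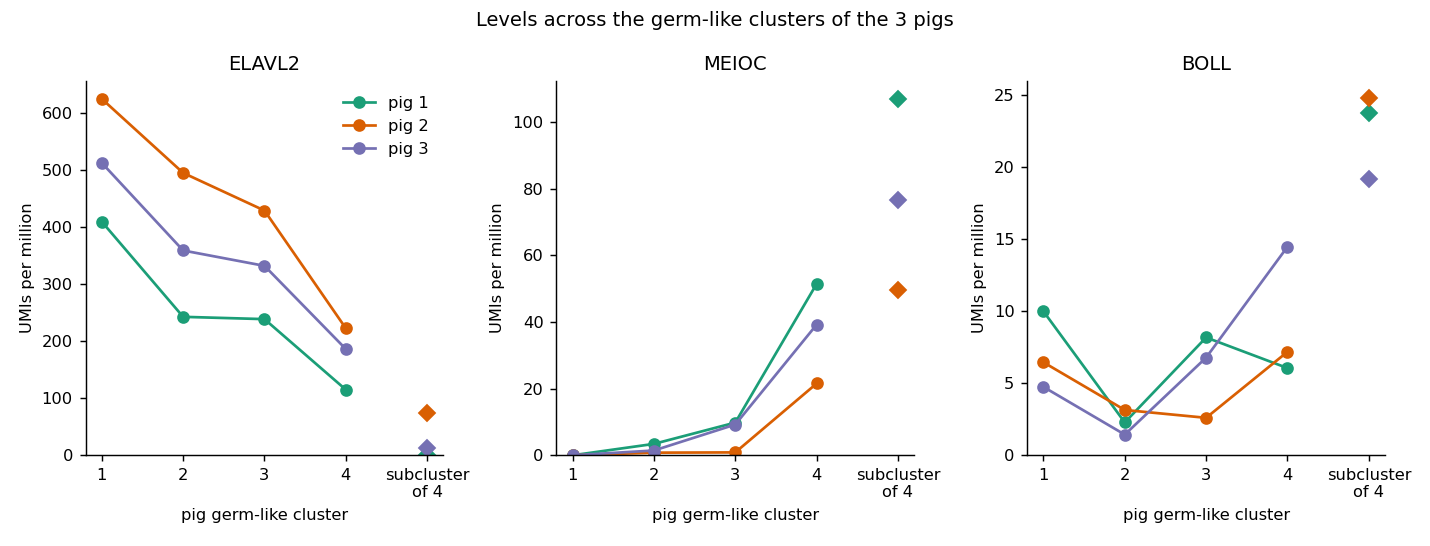
Level in CPM of ELAVL2, MEIOC and BOLL in the 4 germ-like clusters of the 3 pigs, 1 line per pig, with diamonds for the meiotic subcluster of cluster 4. ELAVL2 is lowest in cluster 4 in each pig (the step from cluster 1 to 2 in CPM is absent with TMM normalization), MEIOC is at 0 in cluster 1 and highest in cluster 4, and BOLL has no common order over the clusters.

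Cluster 4 was tested against the sum of the other germ-like cells, a comparison chosen after the clusters were seen. It replaced a first fit with equal weight for each other cluster, which had called BOLL. The change was made because MEIOC had 0 UMIs in cluster 1, so it was not blind to the members. MEIOC was called higher, at a log2 fold change of 3.32 ± 0.59 (SE, adjusted p = 0.00150), where 4.4% of 13986 genes were called higher. ELAVL2 was called lower, at -1.09 ± 0.29 (adjusted p = 0.0222), where 5.62% were called lower. BOLL was not called in this second fit, at 1.31 ± 0.58 (adjusted p = 0.163). All 3 adjusted p-values are from edgeR's quasi-likelihood test. The ELAVL2 call was lost without pig 2 (-0.98, adjusted p = 0.0727) and without pig 3 (-1.27, adjusted p = 0.179), and the MEIOC call without pig 3 (3.90, adjusted p = 0.0810). With the animal as a block, 1354 genes were called higher and 1720 lower, in place of 615 and 786, and both member calls held. Since the clusters were cut from the same cells, p-values between them are smaller than for cells sorted beforehand.

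The members were also compared between neighbouring clusters. From cluster 3 to cluster 4 (4.43% of genes called higher, 4.62% lower) MEIOC was called higher at 2.45 ± 0.60 (adjusted p = 0.0126) and ELAVL2 lower at -1.03 ± 0.29 (adjusted p = 0.0253). The ELAVL2 call at this step was lost without pig 2 (adjusted p = 0.105) and without pig 3 (adjusted p = 0.181), and the MEIOC call without pig 3 (adjusted p = 0.134). From cluster 2 to cluster 3 (1.94% higher, 0.779% lower) no member was called, MEIOC being at 1.97 ± 0.73 (adjusted p = 0.172), but with the animal as a block MEIOC was called at 2.05 (adjusted p = 0.00356). BOLL, at 1.42 ± 0.63, also had an unadjusted p below 0.05 there (0.0333, MEIOC 0.0139), and DESeq2 called no member. From cluster 1 to cluster 2 (11% higher, 14% lower) no member was called by either tool, and MEIOC alone had an unadjusted p below 0.05 (0.0344). ELAVL2 was at 0.09 ± 0.27 there (adjusted p = 0.841), with a sign that turned under other normalizations, and library size alone gave 575 genes higher and 3875 lower in place of 1540 and 1962. With the animal as a block the counts were 2460 higher from cluster 1 to 2, 1131 higher and 1013 lower from 2 to 3, and 1351 higher and 1525 lower from 3 to 4.

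Cattle germ-like cells were also split into subclusters. Subclusters A, B and C, with 173, 76 and 174 cells, held every germ-like cell of cattle 2 and most of those of cattle 3, while 68 of the 82 germ-like cells of cattle 1 lay in a subcluster of their own, so cattle 1 cannot be compared within them. ZBTB16 was at 206 and 367 CPM in subcluster A of cattle 2 and 3. It was not particular to A, at 323, 268 and 87.4 CPM over both animals in A, B and C. The summed list of spermatogonial genes was at 585, 701 and 594 CPM over all cells of A, B and C. Subcluster C held PIWIL4 at 202 and 155 CPM together with STRA8, a gene of meiotic entry, at 157 and 79.1 CPM. DAZL was at 397 and 393 CPM in A, at 375 and 413 CPM in B and at 302 and 199 CPM in C of cattle 2 and 3. BOLL was at 31.9 and 20.6 CPM in A, at 63.0 and 51.4 CPM in B and at 37.2 and 66.9 CPM in C. ELAVL2 and MEIOC had 1 to 12 UMIs per animal and subcluster, too few to order.

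The highest DAZL level lay outside A, B and C, in a subcluster of 28 cells, 23 from cattle 3 and 5 from cattle 1. Its cattle 3 cells held 811 CPM of DAZL (193 UMIs), 63.0 CPM of BOLL (15 UMIs), 21.0 CPM of MEIOC (5 UMIs) and 0 ELAVL2 UMIs. SYCP3, of the synaptonemal complex, was at 164 CPM there, against 34.9, 37.8 and 64.4 CPM in A, B and C. SYCP1 was at 181 CPM there and at 175, 239 and 317 CPM in A, B and C. STRA8 was at 37.8 CPM there and at 13.97, 42.7 and 96.8 CPM in A, B and C. The summed meiotic list was at 1279 CPM over both animals, against 734, 1086 and 1073 CPM in A, B and C. In cattle 3 alone the list was at 1206 CPM there, against 706, 977 and 1119 CPM in A, B and C. Only 1 animal gave enough cells, so these values carry no test.

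DAZL was called lower in C than in A over these 2 animals, at a log2 fold change of -1.06 ± 0.23 (SE, adjusted p = 0.0215), where 5.19% of 10947 genes were called lower and 5.05% higher. With library size alone the value was -0.67 (adjusted p = 0.0804). BOLL was at 0.76 ± 0.40 (adjusted p = 0.245), ELAVL2 at 1.13 ± 1.03 (adjusted p = 0.510) and MEIOC at -0.96 ± 0.65 (adjusted p = 0.364), and none was called (edgeR quasi-likelihood test). With the animal as a block 1554 genes were called higher and 1354 lower in place of 553 and 568.

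**Figure D3:**
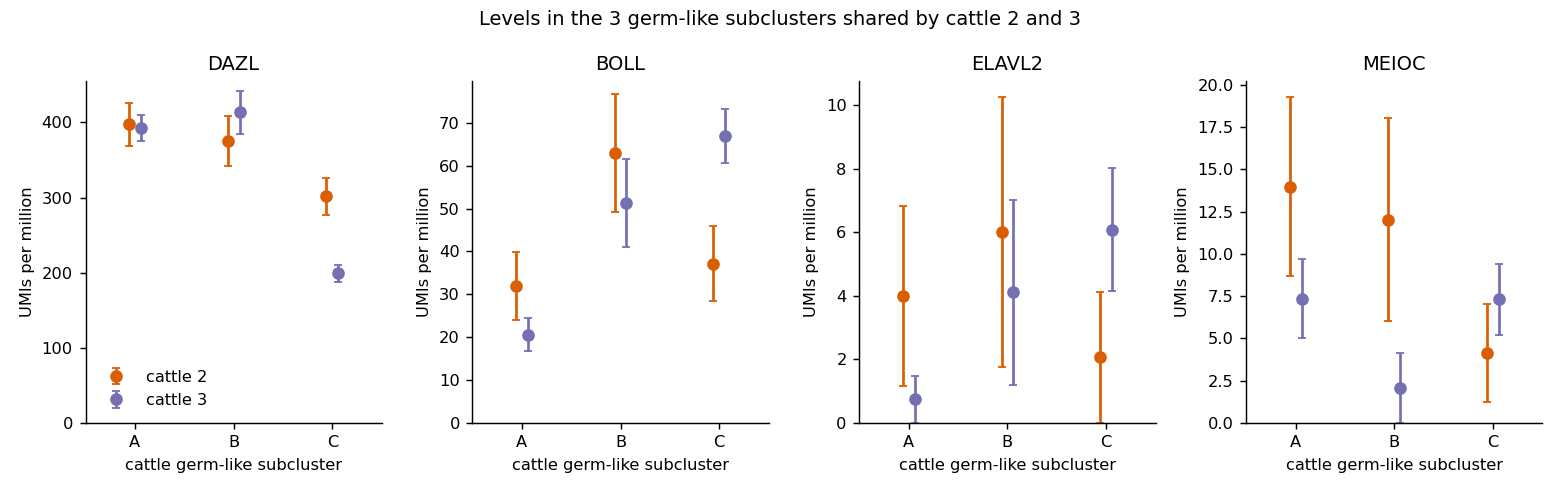
Level in CPM of the 4 genes in germ-like subclusters A, B and C of cattle 2 and 3, with bars of 1 counting error (the square root of the UMIs). DAZL is lowest in C in both animals, at 302 and 199 CPM, while ELAVL2 and MEIOC rest on 1 to 12 UMIs per point.

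The fold between germ-like and other cells was compared between species through the interaction of species and cell class in 1 fit. None of the 3 members listed in both was called, where 8.88% of 12768 genes were called higher in the pig fold and 6.44% lower. The log2 difference, pig minus cattle, was -0.55 ± 1.93 (SE) for BOLL (adjusted p = 0.920), -0.53 ± 0.57 for ELAVL2 (adjusted p = 0.602) and -2.67 ± 1.75 for MEIOC (adjusted p = 0.345). None had an unadjusted p below 0.05, and DESeq2 called none. These errors are wide, and a p that misses the threshold does not show that the folds are alike. With library size alone the calls over all genes were 539 higher and 2231 lower in place of 1134 and 822, and with the animal as a block they were 2038 and 1483.

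A list of 42 other regulators of RNA, of which 39 were listed in cattle and 38 in pig, was set beside the members. In cattle 14 of 35 tested were called higher in germ-like cells and 4 lower, with a median log2 fold change of 0.50 against -0.17 over all genes. Of all genes tested in cattle, 23.1% were called higher and 26.7% lower. In pig 10 of 34 regulators were called higher and 8 lower, with a median of 0.28 against -0.08, where 17% of all genes were called higher and 20.2% lower. Of 31 regulators tested in both species, 8 were called higher and 3 lower in both. The share of all genes called alike in both species is not given here.

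The 8 higher ones included RBM46, which acts with MEIOC and YTHDC2 in mice, at 85.4, 154 and 165 CPM in germ-like cells of cattle 1, 2 and 3 against 0.328, 1.17 and 1.198 CPM in other cells. Its log2 fold change was 5.90 in cattle (adjusted p = 1.91e-05) and 4.32 in pig (adjusted p = 0.000392). LIN28B, which blocks let-7 maturation, had 70 germ-like UMIs and 4 others in cattle (ratio 156, counting interval 58.3 to 588) and 106 and 3 in pig (ratio 55.9, counting interval 18.6 to 275), the 3 being in the unnamed UCHL1-led cluster. ELAVL4, a Hu protein known from neurons, was at 6.83, 8.34 and 5.89 CPM in cattle germ-like cells, with 1 UMI in other cells (ratio 312, counting interval 52.4 to 12667). In pig ELAVL4 was at 42.6, 49.5 and 45.4 CPM against 8.17, 9.33 and 3.28 CPM.

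The germ cell RNA-binding protein YBX2, which stores messenger RNA, was called higher at a log2 fold change of 5.57 in cattle and 2.32 in pig. In cattle it was at 10.3, 8.34 and 83.3 CPM in germ-like cells of cattle 1, 2 and 3, with 311 of its UMIs in cattle 3, and without cattle 3 the ratio to other cells was 40.0054 (counting interval 12.6 to 167). The pig call was lost without pig 1 (adjusted p = 0.117) and without pig 2 (adjusted p = 0.132). NANOS3, a germ cell RNA-binding protein that represses translation, was higher by 2.46 in cattle and had 23 germ-like UMIs against 0 in pig, at least 12.1-fold higher with 3 counts over all other cells as the floor. Pigs 1, 2 and 3 had 14, 1 and 8 of these UMIs. The bound was 4.92-fold without pig 1 and 6.20-fold without pig 2, and the pig call was lost without pig 2 (adjusted p = 0.0940) and without pig 3 (adjusted p = 0.0593). The poly(A)-binding PABPC1L was higher by 3.84 in cattle and, with 13 UMIs against 0, at least 6.85-fold higher in pig (2.25-fold to 11.9-fold when 1 pig was left out). KHDRBS3, a splicing regulator, was higher by 3.25 and 2.89 in cattle and pig, and YTHDF1, which binds N6-methyladenosine, by 1.53 and 1.30.

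Of the regulators called lower in both species, DAZAP2 fell by 1.95 on the log2 scale in cattle and 1.89 in pig, and TIA1 by 1.59 and 1.01. With library size alone the cattle call of TIA1 (-0.49, adjusted p = 0.362) was lost. CPEB1, which controls poly(A) tails in the cytoplasm, was tested in pig alone and was higher by 4.39, at 76.7, 124 and 88.7 CPM against 2.15, 4.50 and 3.60 CPM. In cattle IGF2BP1 was higher by 6.17 and DND1 by 5.51, and in pig ELAVL3 was higher by 3.34 and SAMD4A fell by 3.43. DND1 was uneven, at 68.3, 6.07 and 5.09 CPM in germ-like cells of cattle 1, 2 and 3. Its ratio to other cells was 46.5, but 29.8 without cattle 1 and 160 without cattle 3.

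YTHDC2, the partner of MEIOC, was not called in either species. It was at 13.7, 41.7 and 33.2 CPM in germ-like cells of cattle 1, 2 and 3 against 9.51, 21.7 and 23.2 CPM in other cells, and the log2 fold change was -0.32 (adjusted p = 0.555), turning to 0.79 with library size alone. In pig it was at -0.54 (adjusted p = 0.298). ELAVL1, the broadly expressed Hu protein, was at 0.24 and 0.28 (adjusted p = 0.388 and 0.393) and DAZAP1 at 1.46 and 0.66 (adjusted p = 0.0666 and 0.137) in cattle and pig, and neither was called (edgeR quasi-likelihood test). With the animal as a block DAZAP1 was called in both, at 1.85 and 0.65.

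In pig cluster 4 against the other germ-like cells, 4 of 34 regulators were called, 2 higher and 2 lower. Of all genes 4.4% were called higher and 5.62% lower, close to these shares. The median of the list was -0.35 against -0.14 over all genes. YBX2 was higher by 3.57 (adjusted p = 6.84e-05). YTHDC2 was higher by 1.68 (adjusted p = 0.0203), beside MEIOC, and its call was lost without pig 3 (1.46, adjusted p = 0.347). IGF2BP2 fell by 2.28 and MSI2 by 1.27, both named after their values were seen (edgeR quasi-likelihood test).

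**Figure D4:**
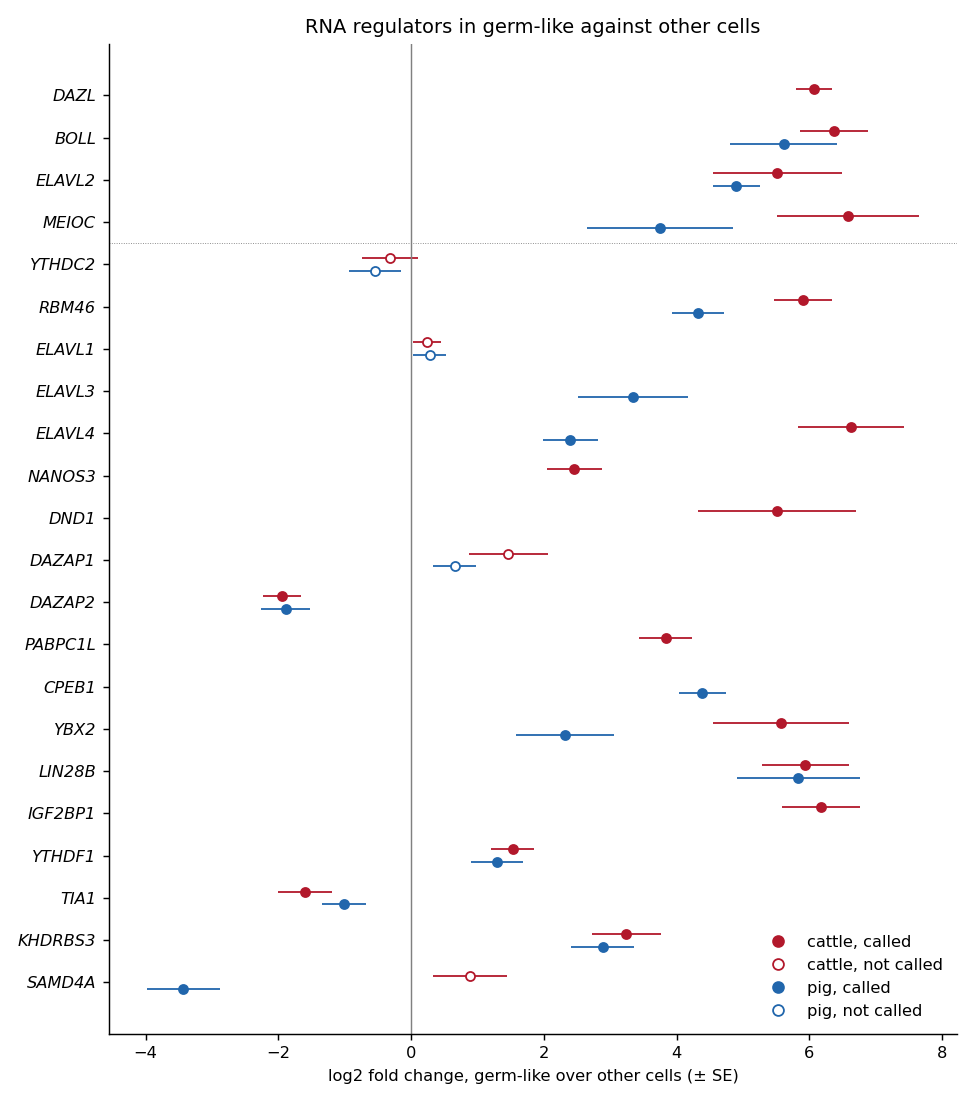
Log2 fold change of germ-like over other cells, with bars of 1 SE, for the 4 members (above the dotted line) and 18 other regulators, in cattle (red) and pig (blue), filled where called. Points are left out where a gene was not tested or had 0 UMIs in the other cells. The members and RBM46, LIN28B and KHDRBS3 lie to the right in the species plotted, while DAZAP2 and TIA1 lie to the left.

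The genes whose level followed each member most closely were ranked by Pearson's r of log2(CPM + 10) over the sums per animal and cell type, with germ-like cells split by their number of meiotic genes, 24 in cattle (5 of them germ-like) and 26 in pig (7 germ-like). The sums of 1 animal share a library and its depth, and the values are descriptions. Genes listed without a symbol are not named, although 1 stood 3rd for cattle DAZL, 1 stood ahead of all others for cattle BOLL and 3 stood ahead of the named gene for pig BOLL. DAZL was followed by TCP11X2 (0.994), DDX43 (0.993), BAIAP2L2 (0.993) and C3H1orf146 (0.993) in cattle. Cattle BOLL was followed by UTF1 (0.994), DDX43 (0.993) and SCG3 (0.993), and pig BOLL by PCBP3 (0.913). Pig ELAVL2 was followed by CPEB1 (0.988), GTSF1 (0.976) and JPH1 (0.972), and pig MEIOC by CTCFL (0.940), SYNGR4 (0.936), RAD51AP2 (0.924) and DPEP3 (0.919). Cattle ELAVL2 and MEIOC had fewer than 50 germ-like UMIs and were not ranked. RAD51AP2 is in the meiotic list by which germ-like cells were split, and GTSF1 is a marker that named them. The ranks of these genes are thus partly built in. Ranked genes needed at least 50 germ-like UMIs and most sums were not germ-like, so r also reflects the contrast of germ-like with other cells.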

How the data were processed

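Single-cell suspensions of 3 cattle and 3 pig testes were loaded on the 10x Genomics platform (3′ libraries, with UMIs). The authors deposited raw UMI counts per gene and barcode, made with Cell Ranger 2.1.0 per the submitters' processing notes. The headers of the pig counts name a newer version. Each cattle library listed 737280 barcodes, while pigs 1, 2 and 3 listed 6220, 22920 and 8808. The part of these differences in the comparison of species was not tested. The gene sets behind the tables are not given in the sources used here. A mouse library was not used.

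The steps added here were as follows. Barcodes were kept above a UMI minimum of 460 to 3458 per library, set as Cell Ranger sets it (expected cells 3000), and with at least 200 genes. The cells with the highest Scrublet scores (0.8% per 1000 cells, 41 to 613 per library) were left out as doublets. Each species was clustered with scanpy 1.11.5 (2000 variable genes, 30 components, 15 neighbours, Leiden resolution 1), with the members and the regulator list kept out of the variable genes. Clusters were named from marker lists, and the rule for naming was set after the clusters, but not the members, had been seen. Members and lists were chosen with earlier results of these data known.

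Counts were summed per animal and class and tested with edgeR 4.0.16 (TMM, genes with at least 10 counts, quasi-likelihood test, Benjamini-Hochberg adjustment over all genes tested, threshold 0.05), with DESeq2 1.42.0, other normalizations and filters, leaving out each animal, and other cell filters as alternatives. The tests were also run on simulated counts, with an outcome that is not given here. Those sums were drawn independently, so the run does not cover the pairing of the real sums. Germ-like and other sums of 1 animal come from the same library, and their deviations from the class means correlated at 0.37 to 0.70 over genes. Fits of clusters and subclusters were chosen after seeing the data. Regulators were named where called in the same direction in both species, where among the 6 largest called changes of a species, or, for YTHDC2, RBM46, ELAVL1, ELAVL3, ELAVL4 and DAZAP1, in any case. One regulator that met this rule is not reported here. Replicates are separate animals, and p-values rest on 3 animals of a species, or on 2 where 1 was left out. They also rest on 2 for cattle subcluster C against A, thinned cattle classes and pig meiotic classes as counted. Without the block, and in the permutation test, sums or shares of 1 animal are treated as independent. Those p-values do not measure the spread of the difference within animals. Intervals are exact at 95% and, like the floor of 3 counts for a 0, cover counting error only. In a sum of cells, a lower level per cell and fewer cells with the RNA cannot be told apart.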

Additional observations from a re-analysis of the deposited data

Results flagged for a closer look

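For 4 of 33 other RNA regulators the fold between germ-like and other cells was called different between species, lower in pig for each. The test was edgeR's quasi-likelihood test of the interaction, with differences given as pig minus cattle on the log2 scale. Of all 12768 genes tested, 8.88% were called higher in the pig fold and 6.44% lower. The count of 4 was not tested against these shares. SAMD4A, a translational repressor, differed by -4.14 ± 0.78 (SE, adjusted p = 0.00303), with 6.83, 4.55 and 2.68 CPM in germ-like cells of cattle against 0.984, 1.04 and 0.890 CPM in other cells, and 0.990, 6.29 and 2.42 CPM against 17.6, 32.6 and 32.2 CPM in pigs. This call held under all 10 alternatives run. ELAVL4 differed by -4.06 ± 0.89 (adjusted p = 0.00684) and lost the call without cattle 2 (-3.55, adjusted p = 0.0671). CELF1 and IGF2BP3 were named after their values were seen. CELF1 differed by -1.64 ± 0.40 (adjusted p = 0.0117) and lost the call without cattle 2, cattle 3 or pig 2 (adjusted p = 0.114, 0.0698 and 0.0559). IGF2BP3 differed by -2.87 ± 0.86 (adjusted p = 0.0334) and lost the call without cattle 2, cattle 3 or pig 3 (adjusted p = 0.133, 0.154 and 0.265). The 2 gene tables differ between species, and their part in these differences was not tested.

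DAZL stood at 19.8 CPM (69 UMIs) over the cattle barcodes of at most 50 UMIs, and ELAVL2 at 25.6 CPM (877 UMIs) over the pig barcodes below the cell minimum, both above the limit of 3 counts. BOLL stood at 4.30 CPM in these cattle barcodes and at 0.467 CPM in the pig ones, and MEIOC at 0.935 CPM in pig. The pig barcodes reached up to the cell minimum and can include cells, germ-like ones among them. Their levels are therefore not a measure of RNA outside cells.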

How the results depend on the processing

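Of 76 member values under an alternative of the comparison of germ-like with other cells, 75 kept direction and call. The exception was pig MEIOC without pig 1 (3.42, of 3.42 to 5.27 without 1 pig). Cattle ELAVL2 could not be tested without cattle 3, where its 5 germ-like and 0 other UMIs fell below the filter of 10 counts. Counts of genes over all genes moved more: leaving out an animal gave 1517 to 4027 higher and 2055 to 4426 lower in cattle, 882 to 1575 and 1477 to 1959 in pig, 395 to 1093 and 239 to 868 for the difference between species, and 124 to 508 and 67 to 664 for pig cluster 4. Library size alone gave 6255 higher and 1826 lower in cattle and 539 and 2231 for the species difference, where DESeq2 gave 1429 lower. It also took the cattle DAZL value of subcluster C against A to -0.67 and that of YTHDC2 to 0.79. The causes were not tested.

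For meiotic against non-meiotic pig cells, 11 genes higher and 0 lower became 2 higher with DESeq2, 121 and 17 with thinned cells, 234 and 227 with subclusters, and 1 lower at a minimum of 2 meiotic genes, where ELAVL2 turned to 0.046. MEIOC was called with subclusters (3.33, adjusted p = 0.00659) and not with thinned cells (2.78, adjusted p = 0.0793). In cattle the planned comparison, and all its alternatives but thinned cells, could not be run. That one called 0 of 9354 genes over 2 animals (edgeR, 598 at an unadjusted p below 0.05), with DAZL at -0.13. Cluster 4 was first fitted with equal weight for each other cluster, which gave 1479 higher and 1193 lower and called BOLL (1.51, adjusted p = 0.0345). This was replaced because MEIOC had 0 UMIs in cluster 1. Without 1 pig, ELAVL2 ranged from -1.27 to -0.98 and MEIOC from 2.99 to 3.90 in cluster 4, and from -1.14 to -0.98 and from 2.15 to 3.02 against cluster 3. ELAVL2 in cluster 2 against 1 turned to -0.16 with DESeq2, -0.51 with library size alone and -0.073 with all genes.

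With the animal as replicate block the sums of each animal are paired. The block gave 25 higher and 1 lower for meiotic cells, 1354 and 1720 for cluster 4, 2038 and 1483 for the species difference, and called MEIOC in cluster 3 against 2 (2.05). It changed no other call of a member.

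Turned signs that were not called before or after were BOLL in the species difference without cattle 3 (0.018, of -1.04 to 0.018 without 1 animal), and, germ-like against other cells in pig, IGF2BP3 without pig 2 (-0.57, of -0.57 to 1.53 without 1 pig) and CELF1 without pig 3 (-0.19, of -0.19 to 0.18) and at a minimum of 500 UMIs (-0.032). That minimum put DAZL at 357 CPM in cattle germ-like cells. Shares as counted were 79.2%, 24.5%, 2.59% and 5.33% for DAZL, BOLL, ELAVL2 and MEIOC in cattle and 5.60%, 75.7% and 7.17% for BOLL, ELAVL2 and MEIOC in pig. In cattle 1 the 0 UMIs of ELAVL2 and MEIOC allow up to 10.3 CPM, above the levels of cattle 2 and 3. Whether these levels differ between the animals was not tested.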

Other observations

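In cattle subcluster C against A, 2 of 31 regulators were called (1 higher, 1 lower, list median 0.02 against 0.05 over all genes, of which 5.05% were called higher and 5.19% lower), both named after their values were seen. YBX2 was higher by 5.25 ± 1.16 (SE, adjusted p = 0.0237) and NANOS3 fell by 3.05 ± 0.38 (adjusted p = 0.00480). In pig cluster 2 against 1, 5 of 34 regulators were called higher and 6 lower (list median -0.23 against -0.07 over all genes, of which 11% were called higher and 14% lower), where no member was called by edgeR's quasi-likelihood test. Those higher included MSI2 (1.89) and METTL3 (1.55), and those lower YBX2 (-2.28) and LIN28B (-1.85), named after their values were seen.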
